A study of Mus musculus with 38 samples.

Results

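Aminoacyl-tRNA synthetases join each amino acid to its transfer RNA and so supply every protein made by the ribosome. The 36 genes described here were picked by their symbols out of the 11184 genes listed in the deposited expression table of mouse macrophages. Earlier results of these data were known when they were chosen. Of the 36 genes, 20 encode the cytosolic enzymes and 16, with symbols ending in 2, encode enzymes of the mitochondrial matrix. All 20 cytosolic genes and 12 of the 16 mitochondrial genes reached the expression minimum (at least 1 RPKM in at least 4 libraries, where RPKM is reads scaled to gene length and library size) and are among the 9942 genes tested. Ears2, Mars2, Nars2 and Wars2 did not reach it and are given by their levels only.

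A synthetase usually recognises a single amino acid, and catalytic domains fall into class I and class II by their fold. Eprs is an exception that joins a glutamate enzyme of class I to a proline enzyme of class II, and it is counted under class I here. Several cytosolic enzymes sit together in the multisynthetase complex with the scaffold proteins Aimp1, Aimp2 and Eef1e1, while the mitochondrial enzymes charge the transfer RNAs used to make the few proteins encoded by mitochondrial DNA. Many cytosolic synthetase genes are known targets of Atf4, a transcription factor made when amino acids run short or the endoplasmic reticulum is stressed, and Wars, the tryptophan enzyme, is known as an interferon-inducible gene.

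The cells were bone marrow-derived macrophages of C57BL/6 mice, which are macrophages grown in culture from marrow precursors. They were left unstimulated (0 h, also called M0) or were stimulated with LPS, a bacterial cell wall component, at 5 ng/ml together with the cytokine IFNg at 12 ng/ml for 4, 8, 16 or 24 h, which gives the inflammatory state called M1. A second arm received lactic acid (LA) 4 h after LPS and IFNg and was taken at 8, 16 and 24 h, so every LA group also carries LPS and IFNg. The labels give no dose of LA, and no group had LA alone. Each of the 8 groups has 4 RNA libraries, and 1 ChIP-seq library each was made for lactylated (H3K18la) and acetylated (H3K18ac) histone H3 lysine 18 in M0 and in M1 at 24 h. The labels do not say whether the 4 libraries of a group came from separate mice or cultures, so p-values measure only the spread between these libraries.

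Between 60633785 and 103927615 reads fell in the listed genes of a library, and a tested synthetase gene had between 135 and 80387 reads in a library. All 8 macrophage markers looked up were listed. Their summed level was 17900 to 20400 RPKM in the 0 h libraries, 13500 to 14500 by 4 h, 13800 to 15900 by 8 h (10500 to 11200 with LA) and 36100 to 48400 by 24 h (37700 to 54000 with LA). The 5 listed of 8 neutrophil markers summed to 10.4 to 16.1 RPKM at 0 h, 55.4 to 84.2 RPKM at 4 h and 56.3 to 70.4 RPKM at 8 h (38.8 to 51.0 with LA). The 5 listed of 6 stromal and endothelial markers went from 0.779 to 0.895 RPKM at 0 h to 3.31 to 3.59 RPKM at 4 h, and stood at 1.67 to 1.95 RPKM at 8 h (3.05 to 3.62 with LA). Xcr1, the 1 listed of 6 dendritic cell markers, was at 0.0273 to 0.0784 RPKM at 0 h and 2.07 to 2.44 RPKM at 4 h. The part of these markers in the results was not tested, and none of 7 lymphocyte and 6 erythroid and mast cell markers was listed. On the second principal component (27.5% of the variance) replicate 4 of 24 h lay at 17.9 against 8.7 to 11.6 for the other 24 h libraries, and replicate 1 of LA 24 h at 28.6 against 22.6 to 25.2. Counts of synthetase genes without both libraries stand beside the results at 24 h. Values of other genes and gene lists at 24 h are given with both libraries included. In bulk RNA, fewer cells expressing a gene and less RNA per cell cannot be told apart.

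The authors' library sizes set the median change of all genes near 0, so a change described here is relative to the other listed genes. The values were also rescaled to each library's reads over the listed genes (listed-read scaling below). The median of all genes tested then moved to a log2 difference of -0.43 for 4 h against 0 h, -0.40 for 8 h, -0.30 for 16 h and -0.37 for 24 h. For LA against the same time it was 0.04 at 8 h, 0.01 at 16 h and -0.15 at 24 h. Counts over the 32 genes are given in both forms for the comparisons with 0 h and for LA at 8 and 24 h. The shares of all genes given beside them are those of the authors' scaling. Where the median of all genes moved, rescaled counts do not by themselves set the synthetases apart. The rescaled counts higher and lower were 4 and 21 from 4 to 8 h, 12 and 14 from 8 to 24 h, and 8 and 10 for LA at 16 h.

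The start regions of the genes are shown first, because the C/EBP-ATF element core was found only among cytosolic genes of those looked at. All 5 genes with the core rose at 4 h, as did 5 of the 8 cytosolic genes whose window lacks it, 16 of the 20 cytosolic genes and 42.5% of all genes tested. Aars and Iars, 2 of the 5, had the other sign under listed-read scaling. RefSeq promoter windows (GRCm38.p6, 250 bases before to 50 bases after the start) were at hand for 27 of the 36 genes, 13 cytosolic and 14 mitochondrial. The core TGATGNAA, which is bound by Atf4 with a C/EBP partner, was found on either strand in 5 of the 27 windows (18.5%), against 3.97% of all 32851 windows and 2.79% of the windows of tested genes. The 5 genes were Aars, Gars, Iars, Tars and Yars. In each sequence of 30 bases, written 5′ to 3′ on the strand of the gene, capitals mark the core or its reverse complement.
Gars: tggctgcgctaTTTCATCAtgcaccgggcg
Tars: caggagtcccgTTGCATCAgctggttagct
Aars: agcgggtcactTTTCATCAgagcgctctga
Iars: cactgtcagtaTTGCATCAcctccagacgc
Yars: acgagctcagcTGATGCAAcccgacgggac
These stretches are chr6:55037960-55037989 for Gars (plus strand), chr15:11399655-11399684 for Tars (minus strand), chr8:111033840-111033869 for Aars (plus strand), chr13:49682126-49682155 for Iars (plus strand) and chr4:129189895-129189924 for Yars (plus strand). Counted with the start as base 1, the core shown begins at base -30 in Gars, -15 in Tars, 10 in Aars, 8 in Iars and 4 in Yars. Those after base 1 lie in the transcribed 5′ end.

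Of 12 cytosolic synthetases reported as Atf4 targets in other work, 8 had a window, and 5 of these 8 held the core. None of the 19 other windows held it, and none of the 14 mitochondrial ones did. The gamma-activated site TTCNNNGAA, bound by STAT dimers, was found in Aars, Kars and Nars2 (11.1% of the 27 windows, against 8.3% of all windows). The interferon-stimulated element was found in Qars alone (3.7% against 3.44%). A match is a run of letters and shows no binding. The 250 bases before the start of Gars and Tars, with the core in capitals, are set beside those of Kars, a gene whose mRNA also rose at 4 h, whose window lacks the core, and whose capitals mark the gamma-activated site.
Gars, 250 bases: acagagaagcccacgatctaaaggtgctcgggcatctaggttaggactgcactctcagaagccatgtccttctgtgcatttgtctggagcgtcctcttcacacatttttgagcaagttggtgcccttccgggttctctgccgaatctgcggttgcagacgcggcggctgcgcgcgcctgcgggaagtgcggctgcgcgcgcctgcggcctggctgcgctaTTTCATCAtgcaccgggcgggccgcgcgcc
Tars, 250 bases: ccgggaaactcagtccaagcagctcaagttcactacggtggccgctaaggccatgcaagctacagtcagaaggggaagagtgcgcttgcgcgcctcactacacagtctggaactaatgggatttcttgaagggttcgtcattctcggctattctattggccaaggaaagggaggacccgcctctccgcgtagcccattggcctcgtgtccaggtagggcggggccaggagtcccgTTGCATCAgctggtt
Kars, 250 bases: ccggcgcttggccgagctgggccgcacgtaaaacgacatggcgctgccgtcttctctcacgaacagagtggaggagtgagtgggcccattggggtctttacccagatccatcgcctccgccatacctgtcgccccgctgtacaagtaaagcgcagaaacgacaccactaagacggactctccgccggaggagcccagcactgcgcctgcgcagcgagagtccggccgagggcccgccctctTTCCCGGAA
The Gars stretch is chr6:55037751-55038000 with 62.4% G and C, the Tars stretch chr15:11399659-11399908 on the minus strand with 57.6%, and the Kars stretch chr8:112011355-112011604 on the minus strand with 64.4%. The median over the 27 genes was 56.8%, against 60% for tested genes. Windows for Rars, Wars, Vars and 6 other genes were not used here.

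In unstimulated macrophages the levels in RPKM differed widely. RPKM divides the reads by a gene length, so the order of genes depends on the lengths behind the deposited values. At 0 h Mars2 had 285 to 374 reads over 11294 bases, and Ears2 had 162 to 188 reads over 5152 bases. Lars2, the mitochondrial leucine enzyme, had the highest mean at 140.0 RPKM, but its 4 libraries read 65.1, 199, 210.0 and 85.8 RPKM and overlap the next gene. The non-coding gene Gm46137 overlaps Lars2 in the annotation, so their reads may be mixed. Nars, the asparagine enzyme, followed with 80.1 RPKM, and its lowest library, at 77.6 RPKM, lay above every library of the other 34 genes. Sars (serine, mean 35.3 RPKM), Kars (lysine, 33.0) and Gars (glycine, 30.6) came next, and the libraries of neighbours in this order overlapped. The lowest were Nars2 (0.667 RPKM), Ears2 (0.401) and Mars2 (0.336), the mitochondrial asparagine, glutamate and methionine enzymes. The 20 cytosolic genes summed to 399 ± 16.5 RPKM (SD, n = 4) and the 15 mitochondrial genes other than Lars2 to 45 ± 1.63 RPKM.

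**Figure D1:**
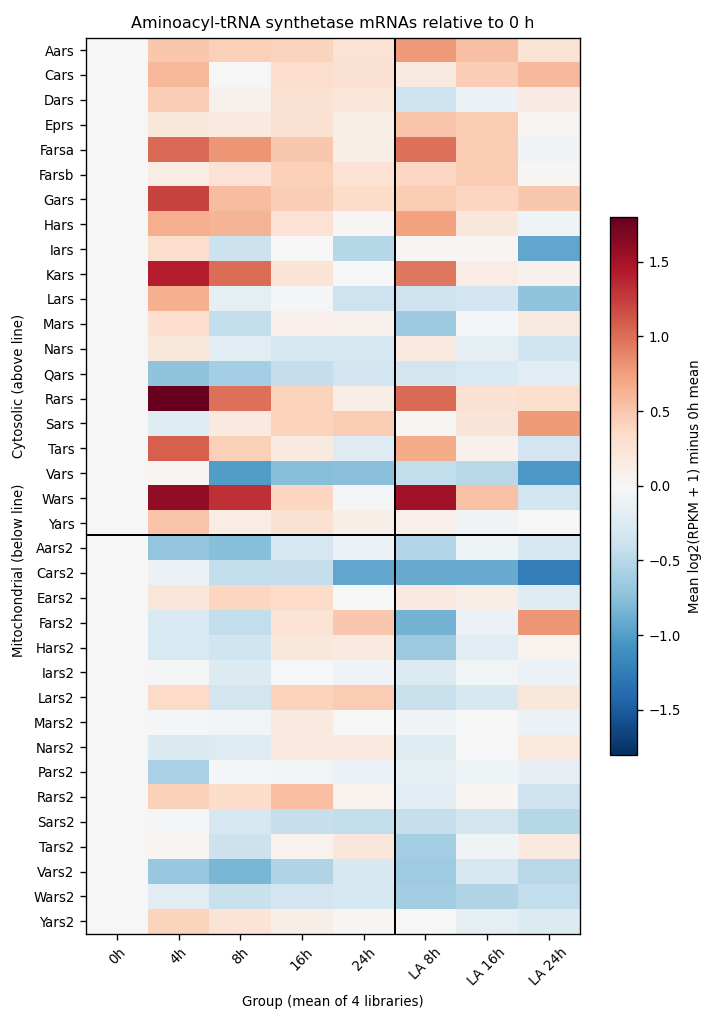
Mean log2(RPKM + 1) of each of the 36 genes in each group (columns, means of 4 libraries) minus its mean at 0 h, as colour from blue (lower) to red (higher). Cytosolic genes stand above the horizontal line and LA groups right of the vertical line. On the authors' scaling, which is shown, 16 of the 20 cytosolic genes are at their highest without LA at 4 h.

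After 4 h of LPS and IFNg most cytosolic synthetase mRNAs were higher than at 0 h, and several mitochondrial ones were lower. Of the 20 cytosolic genes 16 rose and 2 fell (median log2 fold change 0.50), while of the 12 mitochondrial genes tested 2 rose and 5 fell (median -0.07). Over all 32 tested genes 18 rose and 7 fell, where 42.5% of all genes tested rose and 42.7% fell. With listed-read scaling, the counts were 8 higher and 16 lower, the cytosolic genes 8 and 7, and the mitochondrial genes 0 and 9. The sign of 7 called genes turned under that scaling, namely Iars, Eprs, Rars2, Mars, Dars, Aars and Nars, whose log2 fold changes lay between 0.21 and 0.48.

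Rars, the arginine enzyme of the multisynthetase complex, rose most. Its libraries read 23.6, 22.4, 20.1 and 21.8 RPKM at 0 h and 74.0, 80.9, 79.4 and 78.5 RPKM at 4 h. No library of the unstimulated cells came near the lowest at 4 h. The log2 fold change, on the log2(RPKM + 1) scale that understates changes of low genes, was 1.79 ± 0.06 (SE; limma adjusted p = 4.3e-23), and 1.27 under listed-read scaling. Wars read 15.0, 14.9, 13.8 and 15.2 RPKM at 0 h and 47.0, 45.6, 46.1 and 46.4 RPKM at 4 h, and rose by 1.59 ± 0.06 (limma adjusted p = 6.8e-22). Wdr25 overlaps Wars in the annotation, and the strand setting of the authors' counting is not given in the sources used here, so reads of overlapping genes may be mixed.

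Kars, which encodes both the cytosolic and the mitochondrial lysine enzyme, read 33.5, 33.3, 31.9 and 33.1 RPKM at 0 h and 88.7, 92.3, 86.6 and 91.6 RPKM at 4 h. Gars, which likewise serves both compartments, read 32.5, 30.5, 27.3 and 32 RPKM and then 73.1, 74.8, 70.5 and 72.2 RPKM. All libraries of both genes at 4 h were above all at 0 h, and the log2 fold changes were 1.42 ± 0.05 for Kars (limma adjusted p = 8.8e-22) and 1.22 ± 0.06 for Gars (8.2e-18). Tars, the threonine enzyme, rose by 1.07 ± 0.05, and Farsa, the catalytic subunit of the phenylalanine enzyme, by 1.02 ± 0.05. The other subunit of that enzyme, Farsb, was not called (0.13 ± 0.06): Farsa read 7.85, 7.6, 6.79 and 7.15 RPKM and then 16.4, 15.8, 15.4 and 16.1, whereas Farsb read 19.5, 17.3, 15.6 and 17.5 RPKM and then 20.1, 18.4, 18.8 and 19.5. The protein-coding gene Sgpp2 overlaps Farsb in the annotation, so reads at Farsb may be mixed. Rars, Wars, Kars, Gars, Tars and Farsa were higher at 4 h under both scalings.

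Aars, the alanine enzyme, read 13.8, 14.2, 12.4 and 13.6 RPKM at 0 h and 20, 18.5, 19.1 and 19.4 RPKM at 4 h, a called difference of 0.48 ± 0.07 that turned to -0.02 under listed-read scaling. Its annotation overlaps Ddx19b. Iars (isoleucine, 0.31) and Yars (tyrosine, 0.52), the other genes with the core, were also called higher, Iars with the sign turning under that scaling to -0.19.

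Qars, the glutamine enzyme, went the other way. It read 21.1, 20.7, 21.4 and 22.0 RPKM at 0 h and 12.5, 12.6, 12.4 and 12.7 RPKM at 4 h, with no overlap, and fell by 0.72 on the log2 scale (SE 0.04, limma adjusted p = 1.4e-17). Sars was also called lower, at -0.22 ± 0.07. Vars, the valine enzyme, was not called (0.03 ± 0.06), with 9.75, 9.95, 9.15 and 9.04 RPKM at 0 h and 11.5, 9.02, 9.03 and 9.32 RPKM at 4 h.

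**Figure D2:**
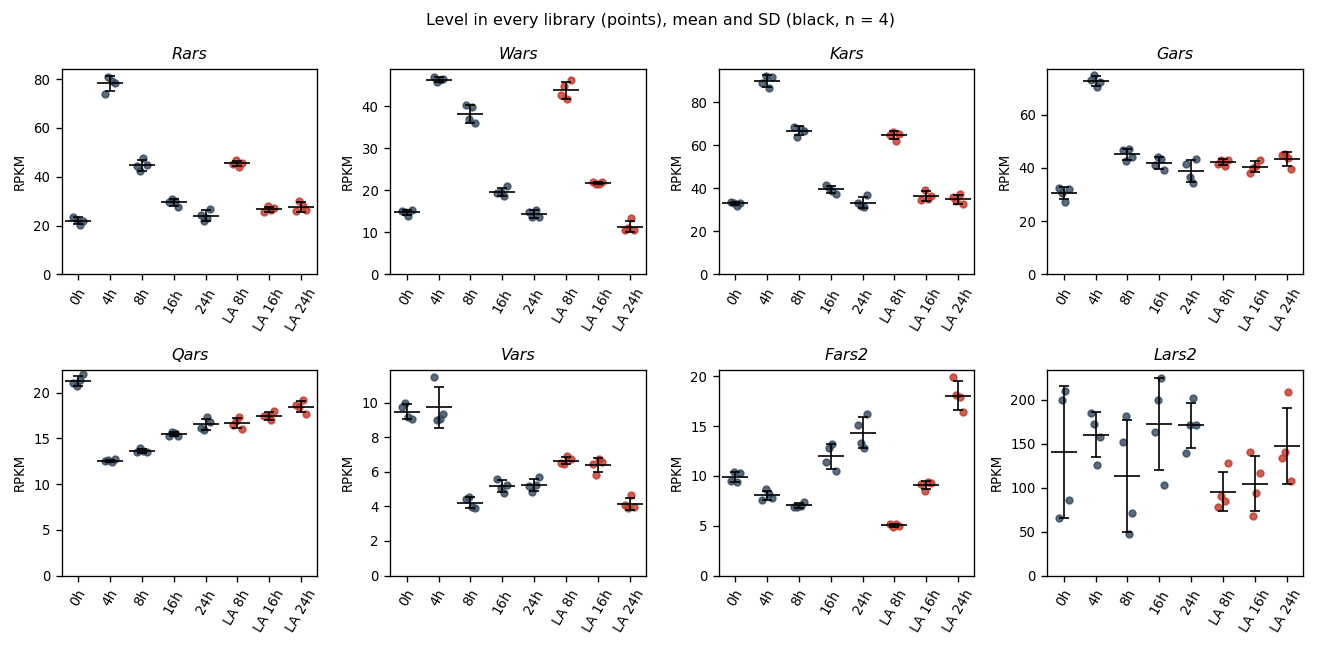
RPKM (vertical axes, from 0) of 8 synthetase genes in every library, with groups along the horizontal axes, LA groups in red, and mean and SD of 4 libraries in black. Rars, Wars, Kars and Gars are highest at 4 h, Qars is lowest there, Vars is lowest without LA at 8 h, Fars2 is highest in LA 24 h, and the libraries of Lars2 spread widely within groups.

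Among mitochondrial genes at 4 h the falls were of Aars2 (alanine), Vars2 (valine), Pars2 (proline), Hars2 (histidine) and Fars2 (phenylalanine). Aars2 read 2.67, 2.22, 2.45 and 2.34 RPKM at 0 h and 1.4, 0.915, 0.933 and 1.12 RPKM at 4 h, and fell by 0.71 on the log2 scale (SE 0.06, limma adjusted p = 9.7e-12). Vars2 read 1.69, 1.49, 1.8 and 1.9 RPKM and then 0.799, 0.707, 0.649 and 0.639 RPKM, a log2 difference of -0.68 ± 0.05. Neither gene had an overlap between the groups. Pars2 read 1.63, 1.42, 1.58 and 1.64 RPKM at 0 h and 0.823, 0.687, 0.666 and 0.686 RPKM at 4 h. The exceptions were Rars2 (arginine, 0.43) and Yars2 (tyrosine, 0.40), which were called higher, Rars2 with its sign turned to -0.02 by the other scaling and with Orc3 overlapping it in the annotation.

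Ears2, below the minimum, was listed at 0.405, 0.427, 0.392 and 0.379 RPKM at 0 h, 0.751, 0.609, 0.588 and 0.563 RPKM at 4 h, and 0.844, 0.87, 0.778 and 0.79 RPKM at 8 h, so that no library at 4 or 8 h overlapped those at 0 h. With no expression filter it was called higher at 4 h (log2 fold change 0.22) and 8 h (0.38). Wars2, Nars2 and Mars2 had means of 1.05, 0.667 and 0.336 RPKM at 0 h. Without the filter Wars2 was called lower at 4, 8, 16 and 24 h, Nars2 was lower at 4 and 8 h and higher at 16 and 24 h, and Mars2 was called at 16 h alone (0.17).

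The synthetases' fellow genes moved in the same hours as follows. Eef1e1 had a mean of 9.13 ± 1.16 RPKM at 0 h and 36.9 ± 1.31 RPKM at 4 h (SD, n = 4 each) and rose by 1.91 on the log2 scale (limma adjusted p = 1.2e-19). Aimp2 rose by 0.94 and Aimp1 by 0.31, so all 3 scaffold proteins of the complex were called higher, beside 7 of the 8 synthetases of the complex, the eighth being Qars. Of 15 tested synthetase partners (scaffolds, transfer RNA export and editing factors, and the amidotransferase of mitochondria) 6 rose and 5 fell, among them Gatc, an amidotransferase subunit, by -1.25. Of all genes tested 42.5% rose and 42.7% fell. Cytosolic translation factors rose in 11 of 12 cases, and mitochondrial translation factors in 1 of 9, the elongation factor Gfm1 (0.66), with 3 lower. By listed-read scaling, 3 complex synthetases were higher and 3 lower, 3 partners were higher and 11 lower, 8 cytosolic translation factors were higher and 1 lower, and 1 mitochondrial translation factor was higher and 8 lower.

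Of the 12 synthetases reported as Atf4 targets 11 rose at 4 h and Sars fell, and of 26 tested genes of the wider Atf4 response 17 rose and 8 fell. The shares of all genes tested were 42.5% and 42.7%. Under listed-read scaling, 4 of the 12 were higher and 4 lower, and 14 of the 26 were higher and 11 lower. Slc7a11, the cystine transporter, rose by 3.72, Cebpb by 3.0 and Atf3 by 2.62 on the log2 scale. The largest falls of the list were those of Slc38a2, an amino acid transporter (-2.34), Trib3 (-1.78) and Sesn2 (-1.62). Atf4 mRNA itself had means of 99.2 ± 7.78 RPKM in the 0 h libraries and 130 ± 2.8 RPKM in those of 4 h. The means were 265 ± 13.4 RPKM by 8 h, 177 ± 11.1 RPKM by 16 h and 111 ± 33.2 RPKM by 24 h, so its highest level came at 8 h. On the authors' scaling, 16 of the 20 cytosolic and 1 of the 16 mitochondrial synthetases had their highest mean without LA at 4 h. Atf4 protein was not measured, and a link between these times was not tested.

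**Figure D3:**
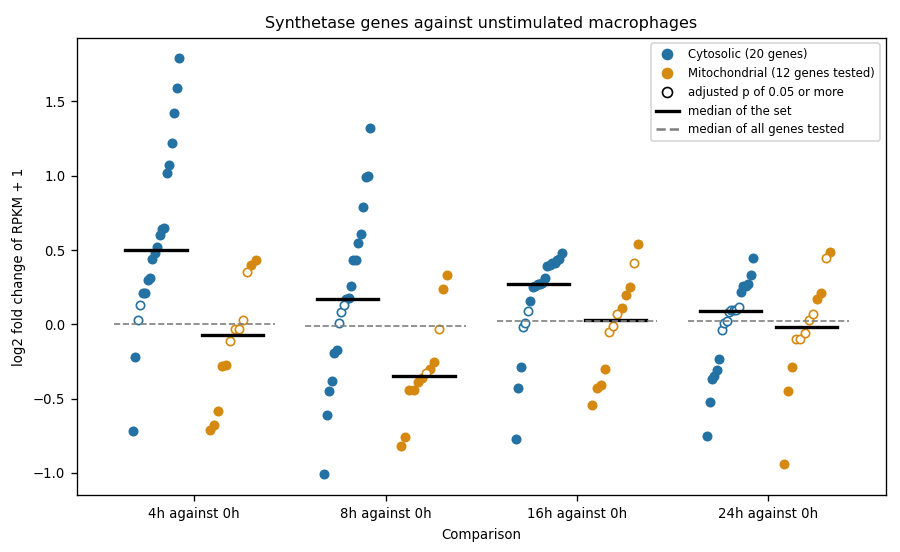
Log2 fold change of RPKM + 1 (vertical axis) of each tested synthetase gene at 4, 8, 16 and 24 h against 0 h, with cytosolic genes in blue, mitochondrial genes in orange and open circles for genes that were not called. Black bars are set medians (0.50 for cytosolic and -0.07 for mitochondrial genes at 4 h, 0.17 and -0.35 at 8 h), and dashed lines the median of all genes tested.

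After 4 h the rise receded. From 4 to 8 h 21 of the 32 tested genes fell and 3 rose, where 36.9% of all genes fell and 34.8% rose. The summed level of the 20 cytosolic genes was 662 ± 5.9 RPKM after 4 h, 502 ± 5.53 RPKM after 8 h, 447 ± 10.8 RPKM after 16 h and 403 ± 25.6 RPKM after 24 h (SD, n = 4 each), the last with libraries from 382 to 436 RPKM that overlap those at 0 h (376 to 414 RPKM). Without LA, 16 of the 20 cytosolic genes had their highest group mean at 4 h, Eprs and Farsb at 16 h, Sars at 24 h and Qars at 0 h. These sums and times of the highest mean are on the authors' scaling only. Under listed-read scaling Iars, Mars, Dars, Aars and Nars, all among the 16, were below 0 h at 4 h. The counts at 24 h with that scaling, given below, also differ from a return to the level at 0 h.

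The largest falls from 4 to 8 h were those of Vars (-1.04 ± 0.06), Lars (leucine, -0.82 ± 0.05), Rars (-0.79 ± 0.06), Mars (methionine, -0.75 ± 0.06) and Iars (-0.69 ± 0.08). Vars, which had not been called at 4 h, read 4.42, 4.52, 3.99 and 3.9 RPKM at 8 h, all below the lowest library at 0 h. Lars read 18.9, 18.5, 19.4 and 19.3 RPKM at 4 h and 10.4, 11.2, 10.0 and 9.89 RPKM at 8 h. Mars overlaps Ddit3, a stress gene of the Atf4 response, in the annotation. Between these times Ddit3 moved the other way, from 5.62 ± 0.206 to 26.0 ± 2.19 RPKM. The 3 genes that rose were Pars2 (0.55), Sars (0.39) and Qars (0.11): Sars read 29.9, 30.7, 29.3 and 30.3 RPKM at 4 h and 40.5, 38, 39.9 and 40.7 RPKM at 8 h, and Qars 13.5, 13.9, 13.6 and 13.5 RPKM at 8 h. Pars2 read 1.68, 1.29, 1.39 and 1.73 RPKM at 8 h, a range that overlaps its libraries at 0 h.

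At 8 h against 0 h 13 genes were higher and 14 lower, close to the shares of all genes (40.7% and 42.1%), and 5 and 22 under listed-read scaling. The cytosolic genes split as 11 higher and 6 lower and the mitochondrial as 2 and 8, or as 5 and 12 and as 0 and 10 with that scaling. Within the cytosolic enzymes, 8 of 10 class II genes were higher and 1 lower, while 3 of 10 class I genes were higher and 5 lower. At 4 h both classes had stood at 8 higher and 1 lower. With listed-read scaling, class II stood at 3 higher and 4 lower by 8 h and class I at 2 higher and 8 lower. Wars (40.2, 36.9, 39.8 and 35.9 RPKM) and Kars (68.6, 64.0, 67.7 and 66.8 RPKM) remained called higher, by 1.32 ± 0.06 and 1.00 ± 0.05, with every library above those at 0 h. Vars was lower by -1.01 ± 0.06 (limma adjusted p = 2e-15) and Vars2 by -0.82 ± 0.05 (3.8e-16), the latter reading 0.579, 0.55, 0.48 and 0.545 RPKM. By listed-read scaling, 7 genes called higher at 8 h had the other sign, Eprs, Rars2, Tars, Sars, Aars, Farsb and Yars2.

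At 16 h 18 genes were higher and 7 lower than at 0 h (39.9% and 36.9% of all genes), but 2 and 17 under listed-read scaling, and 10 of the genes called higher then had the other sign. Rars2 was higher by 0.54 ± 0.07, at 6.93, 7.69, 7.73 and 6.83 RPKM against 5.42, 4.68, 4.34 and 4.41 RPKM, and Farsa by 0.48 ± 0.05, at 11.2, 10.7, 10.5 and 10.4 RPKM. Both were above all libraries at 0 h. Vars remained lower (-0.77 ± 0.06), at 5.6, 5.04, 4.78 and 5.24 RPKM, and so did Vars2 (-0.54 ± 0.05), at 1.0, 0.805, 0.803 and 0.875 RPKM.

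By 24 h 9 genes were higher and 9 lower than at 0 h (39.9% and 37.3% of all genes), with 6 and 6 among the cytosolic and 3 and 3 among the mitochondrial genes. Without replicate 4 of 24 h and replicate 1 of LA 24 h the counts were 9 and 10. Under listed-read scaling, they were 0 and 29 (0 and 19 cytosolic, 0 and 10 mitochondrial), with the other sign for 8 of the 9 genes called higher. The median of all genes tested was also lower under that scaling, so these rescaled counts do not by themselves set the synthetases apart. Wars, Kars, Rars and Farsa were no longer called, with log2 differences of -0.04, 0.01, 0.12 and 0.10. Fars2 was higher by 0.49 ± 0.07 (limma adjusted p = 1.1e-07), with 15.1, 13.3, 12.8 and 16.2 RPKM against 9.5, 10.4, 9.41 and 10.3 RPKM at 0 h, and Sars by 0.45 ± 0.07, with 50.7, 46.7, 43.4 and 54.0 RPKM against 36.2, 36, 31.6 and 37.5 RPKM. No library of either gene overlapped those at 0 h, but the differences were 0.04 (not called) for Fars2 and -0.02 for Sars under listed-read scaling. Cars2, the mitochondrial cysteine enzyme, was lower by -0.94 ± 0.07 (2.8e-13), with 2.05, 2.09, 1.74 and 1.93 RPKM against 5.47, 4.82, 4.14 and 4.23 RPKM. Vars stood at 5.19, 4.81, 5.23 and 5.67 RPKM, lower by -0.75 ± 0.06.

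From 8 to 24 h 12 genes rose and 13 fell (38.9% and 37.6% of all genes), and the compartments divided: of the cytosolic genes 5 rose and 10 fell (median -0.13), and of the mitochondrial genes 7 rose and 3 fell (median 0.36). Without the pair of libraries that stood apart 12 rose and 14 fell. The falls were led by genes that had risen by 4 h: Wars (-1.35 ± 0.06), Kars (-0.99 ± 0.05), Rars (-0.87 ± 0.06), Farsa (-0.69 ± 0.05) and Tars (-0.66 ± 0.05). Wars went down to 14.8, 13.6, 15.4 and 13.6 RPKM and Kars to 33.1, 31.7, 31.4 and 37.0 RPKM, which overlap their libraries at 0 h. Rises were led by Fars2 (0.93 ± 0.07, from 6.91, 6.9, 6.97 and 7.38 RPKM at 8 h), then Lars2 (0.78 ± 0.34), Aars2 (0.67 ± 0.06), Tars2 (threonine, 0.60 ± 0.05) and Hars2 (0.53 ± 0.06). Hars2 and Hars share bases at their starts in the annotation. The 15 mitochondrial genes other than Lars2 summed to 41.0 ± 0.518 RPKM after 4 h, 35.8 ± 0.613 RPKM after 8 h, 47.4 ± 2.66 RPKM after 16 h and 46.3 ± 1.8 RPKM after 24 h.

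Lars2 stood apart from the others in its spread. Its highest library was 3.87 times its lowest at 8 h (152, 181, 46.9 and 71.6 RPKM) and 3.23 times at 0 h, while the largest such ratio in any group of the other 35 genes was 1.88, in Ears2. At 4 h Lars2 read 185, 172, 126 and 157 RPKM, at 16 h 163, 199, 224 and 103 RPKM and at 24 h 139, 171, 202 and 171 RPKM. All 4 of these groups overlapped the libraries at 0 h, and Lars2 was not called against 0 h at any time. Its rise from 8 to 24 h was called with groups that overlap (limma adjusted p = 0.04) and was not called when the 2 groups were compared alone or when replicate 3 (0.43) or 4 (0.63) of 8 h or replicate 2, 3 or 4 of 24 h (0.70 to 0.78) was left out.

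With lactic acid for the 8 h samples, cytosolic genes were more often higher and mitochondrial genes more often lower, in the counts that follow. In all, 11 of the 32 genes were higher and 9 lower with LA than without, against 32.1% and 36% of all genes. Among the cytosolic genes 9 were higher and 3 lower (median 0.12), and among the mitochondrial genes 2 were higher and 6 lower (median -0.17), with a median of all genes of -0.02. With listed-read scaling, the counts were 14 and 7 in all, 12 and 1 for the cytosolic genes and 2 and 6 for the mitochondrial genes. The summed level was 539 ± 4.26 RPKM with LA and 502 ± 5.53 without for the cytosolic genes, and 28.4 ± 0.619 with and 35.8 ± 0.613 without for the mitochondrial genes other than Lars2, and in neither case did the libraries overlap.

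Vars was higher by 0.56 ± 0.06 (limma adjusted p = 1.8e-08), with 6.52, 6.47, 6.9 and 6.71 RPKM in LA against 4.42, 4.52, 3.99 and 3.9 RPKM without. Iars was higher by 0.40 ± 0.08 (0.00011), with 12.4, 11.9, 12.6 and 12.0 RPKM against 8.9, 10.2, 8.81 and 8.35 RPKM. For both genes every LA library was above every library without LA. Nars (0.37 ± 0.05), Aars (0.33 ± 0.07) and Eprs, the joint glutamate and proline enzyme (0.33 ± 0.07), followed. Aars read 24.1, 23.7, 23.5 and 23.3 RPKM with LA and 19.4, 19.2, 18.1 and 17.6 RPKM without. With the trend of change on gene length removed, Aars was at 0.09 and no longer called, and Eprs turned to -0.04.

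The largest of the 9 falls at 8 h were those of Rars2 (-0.53 ± 0.07, limma adjusted p = 4.1e-07), Cars2 (-0.48 ± 0.07, 1e-06), Dars, the aspartate enzyme (-0.45 ± 0.07), Fars2 (-0.41 ± 0.07) and Hars2 (-0.30 ± 0.06). Rars2 read 3.92, 4.11, 4.01 and 3.72 RPKM with LA against 5.8, 6.11, 6.47 and 6.19 RPKM without. Cars2 read 1.88, 2.13, 1.94 and 2.04 RPKM against 2.98, 2.82, 3.33 and 3.57 RPKM, and Fars2 5.2, 4.91, 5.16 and 4.95 RPKM against 6.91, 6.9, 6.97 and 7.38 RPKM. In all 3 the groups were apart. The other 4 genes called lower were the mitochondrial Yars2 (-0.24) and Tars2 (-0.21) and the cytosolic Lars and Mars (both -0.20). Rars, Kars and Gars, the strongest risers of the first 4 h beside Wars, were not called at this time (0.02, -0.05 and -0.10), and Wars was higher by 0.19 ± 0.06, with 42.6, 44.7, 41.6 and 46.1 RPKM.

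At 16 h LA left 7 genes higher and 11 lower (30.2% and 31% of all genes). Without replicate 2 of the 16 h group the number higher was 4. Among called genes Rars2 and Cars2 again had the largest falls, at -0.51 ± 0.07 (4.41, 5.24, 4.6 and 5.01 RPKM) and -0.48 ± 0.07 (1.99, 2.21, 1.9 and 1.9 RPKM against 3.71, 3.32, 2.8 and 2.93 RPKM without LA). Hars2 (-0.39), Dars (-0.37) and Fars2 (-0.36) were called lower too. Vars was higher by 0.26 ± 0.06, at 6.44, 5.84, 6.73 and 6.56 RPKM, and Vars2 by 0.25 ± 0.05, at 1.28, 1.24, 1.17 and 1.2 RPKM, both above every library without LA. Aars2 (0.21), Eprs (0.19) and Qars (0.16) were called higher as well, Eprs with its sign turned to -0.03 and Qars not called (0.07) once the length trend was removed.

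At 24 h 6 genes were higher and 11 lower with LA (25.5% and 21.7% of all genes), or 6 and 10 without the pair of libraries that stood apart. Under listed-read scaling, which also lowered the median of all genes tested, the counts were 0 and 24. Comparing the 2 groups alone left 2 genes higher. Fars2 was now higher by 0.32 ± 0.07 (limma adjusted p = 0.00029), at 19.9, 18.1, 17.9 and 16.4 RPKM, and Sars by 0.31 ± 0.07 (0.0003), at 66.5, 60.2, 60 and 56.1 RPKM. Their libraries lay above all those without LA, but under listed-read scaling both were at 0.11 and not called. Cars, the cytosolic cysteine enzyme, was higher by 0.30 ± 0.07, or 0.11 and not called under that scaling. Rars (0.19) and Gars (0.16) were called with libraries that overlap, and had the other sign under that scaling (-0.02 and -0.05).

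Rars2 remained lower at 24 h (-0.44 ± 0.07), with 3.37, 3.12, 3.43 and 3.8 RPKM against 4.74, 6.27, 4.96 and 4.21 RPKM without LA. Lower too were Iars (-0.41 ± 0.08), Lars (-0.34 ± 0.05), Wars (-0.32 ± 0.06) and Cars2 (-0.31 ± 0.07). Iars read 4.96, 6.24, 6.34 and 6.0 RPKM with LA and 8.7, 9.05, 8.8 and 6.16 RPKM without, an overlap that rests on replicate 4 of the 24 h group. Wars read 10.6, 11, 13.3 and 10.5 RPKM, below all its libraries without LA and at 0 h. Cars2 read 1.6, 1.25, 1.39 and 1.28 RPKM. Ears2, below the minimum, read 0.22, 0.137, 0.257 and 0.192 RPKM with LA and 0.321, 0.44, 0.43 and 0.462 RPKM without, and was called lower in the fit with no expression filter (-0.23).

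Whether the effect of LA itself differed between 8 and 24 h was tested as the difference of the LA effects. It was called in 20 of the 32 genes, 7 towards a higher and 13 towards a lower value at 24 h (32.7% and 29.7% of all genes). The counts were 8 and 14 without the pair of libraries that stood apart, 4 higher without replicate 3 of 24 h, and 2 and 18 under listed-read scaling. Of the cytosolic genes 11 of 20 moved to a lower value and 4 to a higher, or 14 and 1 with that scaling.

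The largest changes were those of Vars (-0.83 ± 0.09, limma adjusted p = 1.5e-08), Iars (-0.80 ± 0.12, 1.2e-06) and Wars (-0.51 ± 0.08, 5.5e-06) on the lower side. Aars2 (-0.43) and Nars (-0.41) came next. Vars, higher with LA at 8 h, read 4.09, 3.93, 4.64 and 3.94 RPKM in LA 24 h against 5.19, 4.81, 5.23 and 5.67 RPKM without. On the higher side stood Fars2 (0.72 ± 0.09, 2.7e-07), Sars (0.46 ± 0.09, 0.00013) and Dars (0.38 ± 0.10, or 0.10 and not called under listed-read scaling), with Mars (0.28) and Gars (0.25) turned to -0.00 and -0.04 under listed-read scaling. In all, 6 genes were called higher at 8 h and lower at 24 h (Vars, Iars, Wars, Farsa, Aars2 and Vars2), and Fars2 was called lower and then higher. Rars2, Cars2, Lars and Yars2 were lower at both times and Qars was higher at both, with Qars at -0.05 at 24 h under listed-read scaling.

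**Figure D4:**
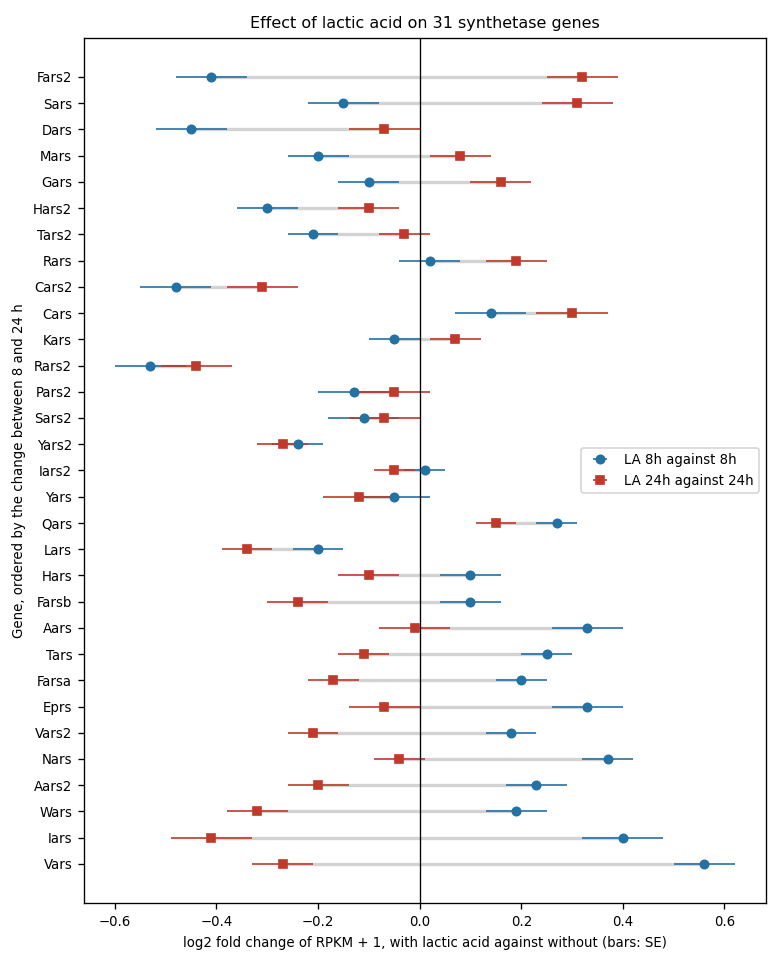
Log2 fold change of RPKM + 1 with LA against without (horizontal axis, bars are SE) at 8 h (blue circles) and 24 h (red squares) for 31 tested synthetase genes, Lars2 left out for its wide error, ordered by the change between the times. Fars2 at the top moves from -0.41 to 0.32, and Vars at the bottom from 0.56 to -0.27.

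The partner genes gave no called rise with LA at any of the 3 times: of 15, 0 were higher and 9 lower in the 8 h samples, 0 and 12 in those of 16 h, and 0 and 6 in those of 24 h. Aimp2 was at -0.62 at 8 h, Eef1e1 at -0.81 at 16 h, and Dtd1, a factor that removes wrongly charged amino acids, at -0.57 at 24 h. Atf4 mRNA was lower with LA at 8 h (190 ± 5.86 RPKM against 265 ± 13.4, log2 fold change -0.48) and 16 h (136 ± 6.16 against 177 ± 11.1, -0.37) and higher at 24 h (203 ± 13.9 against 111 ± 33.2, 0.91). The change from 8 to 24 h was 1.39 ± 0.16 (limma adjusted p = 3.2e-08). Of the 26 Atf4 response genes 14 were higher and 6 lower with LA at 24 h, Ddit3 among them (67.7 ± 7.3 RPKM against 31 ± 10.7). Of the 12 synthetases reported as Atf4 targets 3 were higher and 3 lower at that time. By listed-read scaling, the counts were 10 and 7 for the response genes and 0 and 8 for the 12 synthetases.

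In chromatin, peaks called by the authors were set beside the start of the 27 genes with a RefSeq start, within 1 kb. H3K18la and H3K18ac are marks of active start regions, and with 1 library per mark and state no test is possible. In M0 all 27 genes had a peak of each mark, where 92.8% of tested genes had an H3K18la and 94.8% an H3K18ac peak. In M1 24 of 27 had an H3K18la peak (88.9%, 95% Wilson interval 71.9 to 96.1%, counting error only), against 76.7% of tested genes, and 26 of 27 had an H3K18ac peak (96.3%, against 92.6%).

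The 3 genes with no M1 H3K18la peak were the mitochondrial Cars2, Mars2 and Nars2, so that 13 of 13 cytosolic and 11 of 14 mitochondrial genes had one. With a −log10 q of at least 5 the counts were 11 of 13 and 6 of 14, and within 5 kb they were 13 of 13 and 12 of 14. Of tested genes, 55.0% had an M1 H3K18la peak at that cut and 79.3% had one within 5 kb. Mars2 also lacked an M1 H3K18ac peak. At Gars the M1 H3K18la peak spanned chr6:55037384-55038720 and at Aars chr8:111033427-111034577, and each covers the printed core of its gene. The Tars peak of the same library, chr15:11399323-11400604, covers its core, whereas the Kars peak, chr8:112010846-112011236, lies on the gene's side of the start and leaves out the printed stretch. The Tars peak has a −log10 q of 4.6, under the cut of 5, and the Kars peak one of 5.3. At Cars2 the M0 H3K18la peak spanned chr8:11550147-11551384, with a fold enrichment of 5.56 in the authors' list, where M1 had none. Mean mRNA at 0 h and 24 h was 4.67 and 1.95 RPKM for Cars2, 0.667 and 0.873 RPKM for Nars2, and 0.336 and 0.343 RPKM for Mars2, so that the 3 genes did not move alike.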

How the data were processed

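RNA was measured in 32 libraries and chromatin in 6, of which the 4 antibody libraries have peak lists. Per the submitters' processing notes, HISAT2 2.1.0, featureCounts 1.5.0-p1, Bowtie2 2.2.6, SAMtools 0.1.19 and MACS2 2.2.1 were used with the mm10 and GRCm38 builds, and the strand setting of counting is not given in the sources used here. The authors deposited RPKM values per gene and library, log2 fold changes and p-values of their own, which were not printed here. Nearly all genes in the deposited table pass the authors' p-value limit, so the shares of called genes are high. Each deposited peak has a score, a fold enrichment and a −log10 q from the authors' peak caller, 1 list per library.

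RPKM was tested as log2(RPKM + 1) with limma 3.58.1 (R 4.3.3, mean-variance trend) over all 8 groups of 4 libraries, for the 9942 genes that reached 1 RPKM in 4 or more libraries, leaving out 1242. A gene was called where its p, adjusted by Benjamini-Hochberg over all tested genes, was under 0.05. RPKM gave whole reads for 99.97% of values within 0.05 reads, and these reads give the depths. The test was tried on simulated data. Alternatives were another pseudocount (0.1), no filter, scaling to the reads in listed genes, a replicate block, the groups alone, removal of the length trend, leaving out libraries, and, chosen after seeing the data, limma-voom on the recovered reads. A planned count test was not run because the table holds RPKM. The deviations of same-numbered libraries from their group means had r over 0.1 in 12 of 36 pairs. Over all pairs r ran from -0.643 to 0.511, and many pairs had a negative r. With 4 libraries per group this cannot decide whether the numbers pair the samples, and the labels do not say.

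The genes and lists were chosen with earlier results of these data known. Every library is given for Wars, Aars, Gars, Lars2 and Ears2 and for the 2 largest changes in each direction of a comparison, not at every time for each. Fold changes are given for log2 changes of at least 1 against 0 h and for the 5 largest in each direction elsewhere. Other genes named with values (Farsb, Sars, Vars, Iars, Yars, Pars2, Slc38a2 and the like) outside this rule were chosen after their values were seen. Motifs were searched on both strands of RefSeq windows (GRCm38.p6). A further sequence found in the motif search is not reported here.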

Additional observations from a re-analysis of the deposited data

Results flagged for a closer look

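In 17 of 288 gene and group combinations 1 of 4 libraries stood far from the other 3 by Dixon's test, where chance gives about 1 in 20. In the 24 h group replicate 4 was lowest for Iars (6.16 RPKM) and highest for Aars2 (2.7 RPKM), and replicate 2 was highest for Hars2 (6.34 RPKM). At 4 h replicate 1 was highest for Vars (11.5 RPKM), Pars2 (0.823 RPKM) and Sars2 (2.42 RPKM). At 8 h replicate 2 was highest for Eprs (5.78 RPKM) and Qars (13.9 RPKM), and replicate 4 for Fars2 (7.38 RPKM). At 0 h replicate 2 was lowest for Sars2 (1.86 RPKM), and at 16 h replicate 4 was lowest for Pars2 (1.32 RPKM) and Wars2 (0.565 RPKM). With LA the libraries were replicate 4 at 8 h for Lars (lowest, 8.66 RPKM), replicate 2 at 8 h for Pars2 (lowest, 1.18 RPKM), and at 16 h replicate 3 for Eprs (highest, 6.97 RPKM), replicate 1 for Nars2 (lowest, 0.565 RPKM) and replicate 4 for Pars2 (highest, 1.79 RPKM).

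The effect of LA differed between 8 and 24 h by the limma test of the difference in 20 genes. It moved lower by a log2 difference of -0.83 for Vars, -0.80 for Iars, -0.51 for Wars, -0.43 for Aars2, -0.41 for Nars, -0.40 for both Eprs and Vars2, -0.37 for Farsa, -0.36 for Tars, -0.35 for Aars, -0.34 for Farsb, -0.20 for Hars and -0.12 for Qars. It moved higher by 0.72 for Fars2, 0.46 for Sars, 0.38 for Dars, 0.28 for Mars, 0.25 for Gars, 0.20 for Hars2 and 0.18 for Tars2, and the last 4 had the other sign with values rescaled to reads over the listed genes.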

How the results depend on the processing

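Scaling to the reads in listed genes moved the most counts. It also moved the median of all genes tested, and shares of all genes under it are not given here. Genes higher and lower were then 8 and 16 at 4 h, 5 and 22 at 8 h, 2 and 17 at 16 h and 0 and 29 at 24 h against 0 h, 0 and 24 for LA at 24 h, and 2 higher for the change of the LA effect. It turned the sign of Sars at 24 h (-0.02), of Rars (-0.02) and Gars (-0.05) for LA at 24 h, and of Gars (-0.04) and Mars (-0.00) for the change of the LA effect. Removing the length trend turned Eprs for LA at 8 h (-0.04) and 16 h (-0.03). Comparing groups alone left 2 genes higher for LA at 24 h. A −log10 q of at least 5 left 23 of 27 genes with an M0 H3K18ac peak and 17 with an M1 H3K18la peak. The shares of tested genes were 86.3% and 55.0%. Leaving out 1 library gave 4 to 7 genes higher for LA at 16 h and 4 to 9 for the change of the LA effect. The causes were not tested. Outside the left-out libraries, the alternatives for the 78 gene and comparison pairs that the naming rule chose gave 605 values that kept direction and call, 12 that kept direction only and 7 that reversed. Other called genes whose sign turned are counted in the results. With the replicate block 13 genes were higher at 24 h than at 8 h against 12 without it, and whether the numbers pair the samples is not known. The planned count test and its scaling alternative were not run. The 4 genes below the minimum had 47 to 551 reads per library, a range that overlaps that of the tested genes (135 to 80387). They missed a cut on RPKM, which divides by gene length, and not a cut on reads.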
